A study of Mus musculus with 2 samples.

Results

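The let-7 family was followed in small RNA libraries of mouse liver. The members were the guide strands mmu-let-7a-5p, mmu-let-7b-5p, mmu-let-7c-5p, mmu-let-7d-5p, mmu-let-7e-5p, mmu-let-7f-5p, mmu-let-7g-5p and mmu-let-7i-5p together with mmu-miR-98-5p, taken by these exact names (written without the mouse prefix from here on), and all 9 were listed in both deposited tables, among 484 microRNAs in experiment 1 and 1915 in experiment 2. Each table held 1 pair-fed and 1 ethanol-fed library. Both groups were female C57BL/6 mice without a targeted allele, 8 to 10 weeks old, that first took the control Lieber-DeCarli liquid diet for 5 days. The ethanol-fed group then received 5% (v/v) ethanol in the liquid diet over 10 days and was gavaged with ethanol (6 g/kg) on day 16. The pair-fed group received matched calories without ethanol and was gavaged with dextrin-maltose, and livers were taken 9 h after the gavage. The design statement speaks of 16 days of ethanol feeding, which differs from the 10 days of the protocol. The labels list 1 sample per condition for both tables, the study describes its sequencing as independent experiments, and the sources used here do not say whether a library was made from 1 animal or from a pool. With 1 library per condition in each table there was no replicate, so every comparison below is between libraries, and the intervals cover counting error only.

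A microRNA is cut from a hairpin precursor, and the strand that stays in the Argonaute protein, the guide, finds messenger RNAs mainly through its seed, the bases after the first one at the 5′ end. Members of the let-7 family carry the same seed and can therefore act on overlapping sets of messenger RNAs, among which those of Ras, Hmga2 and Lin28 genes are well known. The family is abundant in differentiated tissues, adult liver among them, and its maturation is blocked by LIN28 proteins in early development.

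All 9 mature sequences were matched by name in RefSeq (GRCm38.p6). They are shown because the members differ from each other by so few bases that their values can be read only with the sequences in view. Capitals mark the seed, bases 2 to 8, and positions are counted from 1 at the 5′ end.
let-7a-5p: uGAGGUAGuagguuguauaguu
let-7f-5p: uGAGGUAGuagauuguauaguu
let-7c-5p: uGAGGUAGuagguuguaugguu
let-7b-5p: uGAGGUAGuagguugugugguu
let-7e-5p: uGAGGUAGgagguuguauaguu
let-7d-5p: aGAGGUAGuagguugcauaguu
let-7g-5p: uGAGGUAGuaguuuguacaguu
let-7i-5p: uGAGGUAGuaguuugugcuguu
miR-98-5p: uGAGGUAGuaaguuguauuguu

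Each of the 9 was 22 nt long. No length correction was applied, and whether each sequence was captured equally well in the libraries was not tested. The seed GAGGUAG was the same in all of them, 14 of the 22 positions were invariant, and 8 positions varied. Of the 36 pairs of members, 4 differed by a single base. Relative to let-7a-5p, let-7f-5p carried G12A, let-7c-5p carried A19G and let-7e-5p carried U9G, while let-7b-5p differed from let-7c-5p by A17G. let-7d-5p was the one member with another first base (U1A), and it also carried U16C. let-7g-5p and let-7i-5p shared G12U and U18C, and miR-98-5p carried G11A and A19U. The number of mismatches allowed in mapping is not given in the sources used here, so reads of such neighbours could have been counted under either name.

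The members came from 12 genes on 7 chromosomes in GRCm38.p6, where a gene was counted when its hairpin contained the mature sequence. let-7a-5p, let-7c-5p and let-7f-5p were each held by 2 hairpins, so their values are sums over genes that cannot be told apart. The deposited tables hold no coordinates, and the positions here were looked up by name. On the minus strand of chromosome 13, Mirlet7d (48536012 to 48536114), Mirlet7f-1 (48537829 to 48537917) and Mirlet7a-1 (48538179 to 48538272) lay in exons of the long noncoding RNA gene 6720427I07Rik, as annotated in GENCODE vM21. On the plus strand of chromosome 15, Mirlet7c-2 (85706603 to 85706697) and Mirlet7b (85707319 to 85707403) lay in exons of the noncoding transcript Lncppara. On the plus strand of the X chromosome, Mirlet7f-2 (151912346 to 151912428) and Mir98 (151913214 to 151913321) lay in an intron of Huwe1, which encodes a ubiquitin ligase, with 785 bp between them. Mirlet7g (chromosome 9, 106178840 to 106178927, plus strand) was intronic in Wdr82, and Mirlet7e (chromosome 17, 17830352 to 17830444, plus strand) was intronic in Spaca6. Mirlet7a-2 (chromosome 9, 41536716 to 41536811) and Mirlet7c-1 (chromosome 16, 77599657 to 77599750), both on the plus strand, were intronic in noncoding host genes, and Mirlet7i (chromosome 10, 122985640 to 122985724, minus strand) was exonic in the transcribed pseudogene D630033A02Rik.

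The libraries of experiment 1 held 4170601 (pair-fed) and 4311802 (ethanol-fed) reads on microRNAs. Experiment 2 was deposited as RPM, the reads of a microRNA scaled to a library of 1e6 microRNA reads, and the steps between its low values gave estimated totals of 10812564 and 10820754 reads. The hepatocyte microRNA miR-122-5p made up 0.297% and 0.221% of the reads in experiment 1 against 18.3% and 15.7% in experiment 2, so the defining hepatocyte marker was present in all 4 libraries but low in experiment 1. The red cell list (miR-451a, both strands of miR-144 and miR-486a-5p, 4 of 4 above 0 in every library) summed to 11559 RPM (pair-fed) and 33915 RPM (ethanol-fed) in experiment 1, and to 1826 and 1152 RPM in experiment 2. The white cell list (miR-223-3p, both strands of miR-142a, miR-150-5p and miR-155-5p) summed to 404 and 336 RPM in experiment 1 and to 886 and 473 RPM in experiment 2, and the mesenchyme list (miR-143-3p, miR-145a-5p, miR-199a-3p and miR-214-3p) to 96518 and 96073 RPM and to 18978 and 24067 RPM. miR-217-5p, miR-216a-5p, miR-216b-5p and miR-375-3p, the pancreas list, summed to 85.1 and 48.5 RPM in experiment 1, where 2 of the 4 were listed, and to 5.92 and 113 RPM in experiment 2. The part of these shifts in the let-7 values was not tested beyond the rescaling without the red cell list and miR-486b-5p given below. In bulk liver RNA, fewer cells of a type and less RNA per cell cannot be told apart, and the source of the gaps between the experiments was not tested.

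Together the 9 members took a similar share of the microRNA reads in all 4 libraries. In experiment 1 the family made up 14.1% of the reads with pair feeding (95% Wilson interval 14.05% to 14.12%) and 12.9% with ethanol (12.92% to 12.98%). In experiment 2 the shares were 14.0% (13.95% to 13.99%) and 15.2% (15.14% to 15.18%). The summed level was lower in the ethanol-fed library of experiment 1 (log2 ratio -0.12, 95% counting interval -0.13 to -0.12) and higher in that of experiment 2 (0.12, 0.11 to 0.12). Without let-7f-5p the sign in experiment 1 turned, as the sum of the other 8 members was higher in the ethanol-fed library (0.14, 0.13 to 0.15). Of these 8, 6 were higher and 2 lower, the latter being let-7a-5p and let-7i-5p. let-7c-5p alone went from 10076 to 14792 RPM, while the sum of the 8 went from 35776 to 39535 RPM.

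let-7f-5p was the most abundant member in every library. In experiment 1 it had 438186 reads (105065 RPM) with pair feeding and 387873 reads (89956 RPM) with ethanol, and 60425 and 68879.6 RPM in experiment 2. Within the family its share was 74.6% and 69.5% in experiment 1 but 43.2% and 45.4% in experiment 2. Among all microRNAs let-7f-5p thus held rank 2 (pair-fed) and rank 3 (ethanol-fed) in experiment 1 and rank 4 in both libraries of experiment 2. let-7a-5p, its neighbour by 1 base and by gene, had 68471 and 63092 reads (16417.5 and 14632 RPM) in experiment 1 and 16464 and 18392 RPM in experiment 2. The pair-fed levels of let-7a-5p therefore nearly coincided between the experiments.

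let-7c-5p and let-7b-5p are the members with G at position 19 and share a cluster on chromosome 15. In experiment 1 let-7c-5p had 42022 reads (10076 RPM) with pair feeding and 63779 reads (14792 RPM) with ethanol. In experiment 2 it stood at 16992 and 15404 RPM. let-7c-5p was lower than let-7a-5p in the pair-fed library of experiment 1, and in the ethanol-fed library their Wilson intervals overlapped (1.47% to 1.49% of reads for let-7c-5p and 1.45% to 1.47% for let-7a-5p). In experiment 2 let-7c-5p was above let-7a-5p with pair feeding and below it with ethanol. let-7b-5p was far less abundant, with 3661 and 6050 reads (878 and 1403 RPM) in experiment 1 and 2381 and 2234 RPM in experiment 2.

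let-7g-5p and let-7i-5p, which share G12U and U18C, changed places between the experiments. let-7g-5p had 9011 and 10464 reads (2161 and 2427 RPM) in experiment 1 but 32887 and 36813 RPM in experiment 2. let-7i-5p had 18039 and 17902 reads (4325 and 4152 RPM) in experiment 1 and 8331 and 7199.6 RPM in experiment 2. The ratio of let-7g-5p to let-7i-5p was thus 0.50 and 0.58 in experiment 1, and 3.95 and 5.11 in experiment 2.

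let-7d-5p, let-7e-5p and miR-98-5p were the 3 least abundant members in each library. let-7d-5p had 2393 and 2813 reads (574 and 652 RPM) in experiment 1 and 1745 and 1984 RPM in experiment 2. let-7e-5p had 3459 and 3940 reads (829 and 914 RPM) in experiment 1 and only 226 and 348 RPM in experiment 2. miR-98-5p, which is named apart from the family but holds its seed, had 2153 and 2427 reads (516 and 563 RPM) and 275 and 336 RPM. miR-98-5p was the lowest member in 3 libraries, and let-7e-5p was the lowest in the pair-fed library of experiment 2. In the ethanol-fed library of experiment 2 the intervals of let-7e-5p (0.0337% to 0.0359% of reads) and miR-98-5p (0.0326% to 0.0347%) overlapped. The intervals of the other neighbours in the order did not overlap, apart from let-7a-5p and let-7c-5p as given above and, in the pair-fed library of experiment 1, let-7b-5p (0.0850% to 0.0907%) and let-7e-5p (0.0802% to 0.0857%), whose intervals met. With 1 library per condition, the spread between animals behind this order is unknown.

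**Figure D1:**
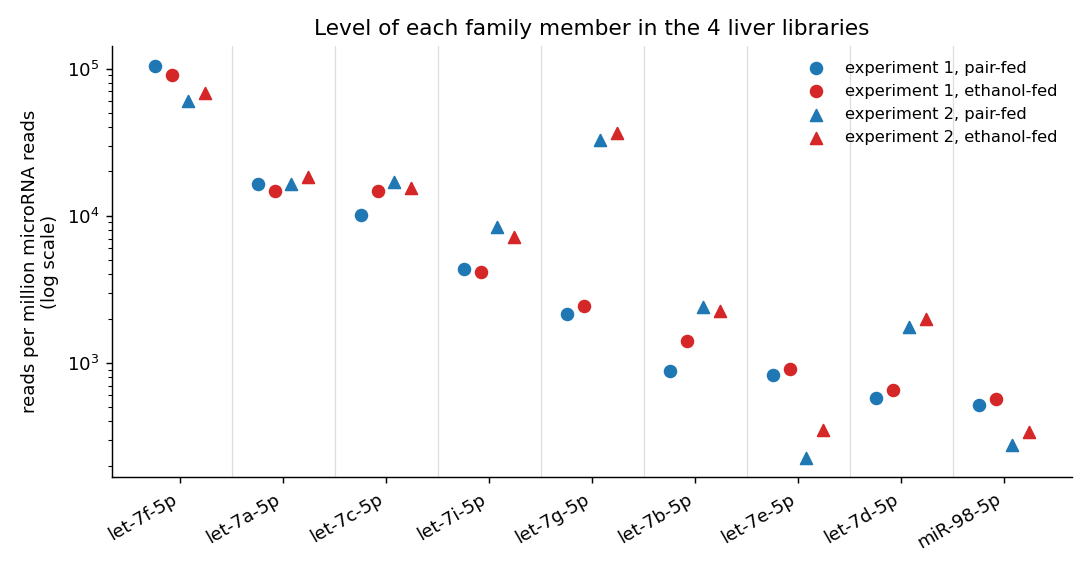
Level of each member in RPM (log scale) in the pair-fed (blue) and ethanol-fed (red) libraries of experiment 1 (circles) and experiment 2 (triangles), 1 point per library. let-7f-5p was highest in all 4 libraries, and let-7g-5p showed the widest gap between the experiments, from 2161 to 32887 RPM in the pair-fed libraries.

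The order of the members was similar in all libraries. Over the 9 members, the rank correlation of the levels between pair-fed and ethanol-fed libraries was 0.98 in experiment 1 and 0.97 in experiment 2, and that between the experiments was 0.83 for the pair-fed and 0.87 for the ethanol-fed libraries. These correlations describe 9 sequences measured in the same libraries, and the members are not independent. Levels of the 2 experiments were scaled separately, so a fold between them is a description. let-7g-5p was 15.2-fold higher in experiment 2 than in experiment 1 under either diet, and let-7d-5p was 3.04-fold higher under either. let-7b-5p was 2.71-fold higher in the pair-fed and 1.59-fold higher in the ethanol-fed libraries. let-7e-5p was 3.67-fold and 2.63-fold lower. Of the 9 members, 4 differed at least 2-fold between the pair-fed libraries (3 higher and 1 lower in experiment 2), where 70.8% of the 277 microRNAs tested in both tables and above 0 in both pair-fed libraries did so (52.3% higher and 18.4% lower). Between the ethanol-fed libraries 3 members did (2 higher and 1 lower), beside 66.9% of 275 microRNAs (49.8% higher and 17.1% lower). In experiment 2 values under 10 reads appear as 0, so rare microRNAs that were lower there could fall out of these comparisons. The shares by direction over 277 and 275 microRNAs can therefore lean toward higher in experiment 2. Among the 57 microRNAs with at least 1000 reads in all 4 libraries, the members included, the shares in either direction were 68.4% and 66.7%, and they were not split by direction. No difference between the members and these shares was tested. In all, 43 microRNAs had a larger ratio than let-7g-5p between the pair-fed libraries.

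**Figure D2:**
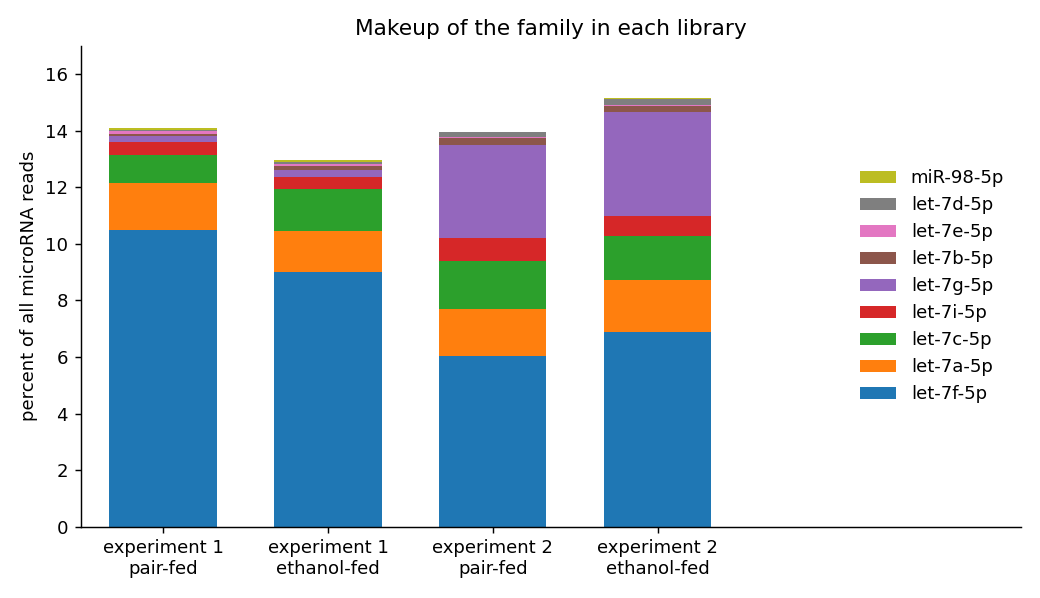
Stacked bars of the percent of all microRNA reads taken by each member in each of the 4 libraries. The summed height stayed between 12.9% and 15.2%, while let-7g-5p filled 0.216% of the reads in the pair-fed library of experiment 1 and 3.29% in that of experiment 2.

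The comparison of ethanol-fed with pair-fed liver asks which small RNAs differ after short-term ethanol feeding. Ethanol-fed RPM was divided by pair-fed RPM and put on the log2 scale with a pseudocount of 1 read, and a microRNA was counted as changed when the ratio reached 2-fold. No member reached 2-fold in experiment 1, where 25.5% of 302 microRNAs with at least 10 reads did, and none in experiment 2, where it was 25.8% of 469. In experiment 2 values under 10 reads appear as 0. The shares over its 469 microRNAs therefore include ratios against such a 0 and are not like those of experiment 1. Among microRNAs with at least 1000 reads in both libraries, a level that all members passed, the shares were 3.28% of 61 and 0% of 121, a background near the 0 of 9 members. The SD of the log2 ratios over the 9 members was 0.30 in experiment 1 and 0.25 in experiment 2, against 0.45 and 0.36 over these abundant microRNAs. The abundant microRNAs include the 9 members, and the difference in SD was not tested.

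In experiment 1, 6 members were higher and 3 were lower in the ethanol-fed library, and the counting interval of all 9 left out 0. The same was true of 53.6% of all microRNAs tested and of 90.2% of those with at least 1000 reads (45.9% higher, 44.3% lower), whose intervals are narrow. let-7b-5p had the widest difference, with a log2 ratio of 0.68 (95% counting interval 0.62 to 0.74, 1.60-fold). It was followed by let-7c-5p with 0.55 (0.54 to 0.57, 1.47-fold). let-7b-5p alone among the members passed 1.5-fold, where 44.4% of all and 14.8% of the abundant microRNAs did. let-7c-5p also passed 1.5-fold under 3 other scalings, with 0.59 by size factors, 0.62 without the red cell list and miR-486b-5p in the total and 0.60 with unscaled reads. let-7d-5p (0.19), let-7g-5p (0.17), let-7e-5p (0.14) and miR-98-5p (0.12) were higher by smaller amounts. let-7f-5p was lower, with a log2 ratio of -0.22 (-0.23 to -0.22), as was let-7a-5p with -0.17 (-0.18 to -0.15). let-7i-5p was at -0.06 (-0.09 to -0.03), and this sign turned to 0.0068 when the red cell list and miR-486b-5p together were left out of the total. The list alone was 2.93-fold higher in the ethanol-fed library, and leaving out only the list was not run. The median over the 9 members was 0.14, beside -0.01 over all 302 microRNAs and 0.05 over those with at least 1000 reads.

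In experiment 2, 6 members were again higher and 3 lower, and again no interval included 0, as for 64.6% of all and 85.1% of the abundant microRNAs (48.8% higher, 36.4% lower). let-7e-5p differed most, with a log2 ratio of 0.62 (0.55 to 0.70, 1.54-fold), and was the one member past 1.5-fold, where 38.8% of all and 14% of the abundant microRNAs were. miR-98-5p was higher by 0.29 (0.22 to 0.36). let-7f-5p (0.19), let-7d-5p (0.19), let-7g-5p (0.16) and let-7a-5p (0.16) lay close together. The lower members were let-7i-5p with -0.21 (-0.22 to -0.20), let-7c-5p with -0.14 (-0.15 to -0.13) and let-7b-5p with -0.09 (-0.12 to -0.07). Over the 9 members the median was 0.16, beside 0.0026 over all 469 microRNAs and 0.05 over those with at least 1000 reads. The intervals in experiment 2 rest on read numbers estimated from the RPM steps.

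**Figure D3:**
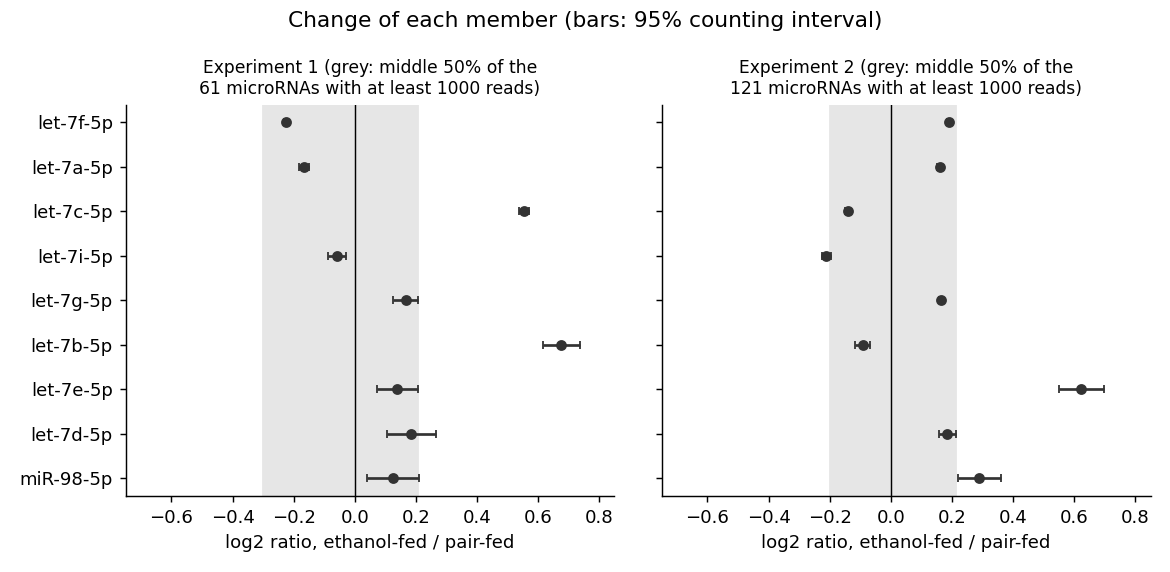
Ethanol-fed RPM over pair-fed RPM (log2) for each member in experiment 1 (left) and experiment 2 (right), with bars for the 95% counting interval and a grey band for the middle 50% of microRNAs with at least 1000 reads in both libraries. The 9 members are among the microRNAs from which the band was taken. In experiment 1, 7 of the 9 members lay in the band and let-7b-5p and let-7c-5p lay above it, whereas in experiment 2, 6 did and let-7e-5p, at 0.62, lay farthest outside.

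Across the experiments the members fell into 3 sets by direction. let-7d-5p, let-7e-5p, let-7g-5p and miR-98-5p were higher in the ethanol-fed library of both tables, and let-7i-5p was lower in both. For let-7d-5p the log2 ratios were 0.19 and 0.19, and for let-7g-5p they were 0.17 and 0.16. The other 4, let-7a-5p, let-7b-5p, let-7c-5p and let-7f-5p, had opposite signs in the 2 tables, each with both counting intervals leaving out 0. Opposite signs were found for 52.3% of the 283 microRNAs tested in both tables and for 43.9% of the 57 with at least 1000 reads in all 4 libraries, and opposite signs with both intervals leaving out 0 for 19.1% and 36.8%. The 4 of 9 members stood near the share among the abundant microRNAs, which include the members, so the split is no result about the family. The rank correlation of the log2 ratios of both experiments was -0.25 over the 9 members, beside -0.02 over the 283 and -0.03 over the 57 microRNAs, given as a description of sequences that share their libraries.

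Ratios between members 1 base apart, or with genes in 1 cluster, were followed next, and the first 2 pairs are both. In experiment 1 let-7b-5p stood at 8.71 (pair-fed) and 9.49 (ethanol-fed) reads per 100 reads of let-7c-5p, and at 14.0 and 14.5 in experiment 2. let-7f-5p stood at 6.40 and 6.15 reads per read of let-7a-5p in experiment 1 and at 3.67 and 3.75 in experiment 2. These ratios within a library do not depend on the total used for scaling. Their log2 change with ethanol was 0.12 (95% counting interval 0.06 to 0.18) and 0.05 (0.02 to 0.08) for the first pair. For the second pair it was -0.06 (-0.07 to -0.04) and 0.03 (0.02 to 0.04), with opposite signs in the 2 experiments. The ratio of let-7c-5p to let-7a-5p, which differ by A19G alone, went from 0.614 to 1.01 in experiment 1 (log2 change 0.72, 95% counting interval 0.70 to 0.74) and from 1.03 to 0.838 in experiment 2 (-0.30, -0.31 to -0.29). The ratio of let-7e-5p to let-7a-5p, also 1 base apart but from separate clusters, had log2 changes of one sign, 0.31 (0.24 to 0.37) and 0.46 (0.39 to 0.54). So had that of miR-98-5p to let-7f-5p, which share the X chromosome cluster, with 0.35 (0.26 to 0.43) and 0.10 (0.03 to 0.17). let-7d-5p, the third member of the chromosome 13 cluster, went from 3.49 to 4.46 reads per 100 reads of let-7a-5p in experiment 1 and from 10.6 to 10.8 in experiment 2. In experiment 2 the interval of this change included 0 (log2 0.03, -0.0042 to 0.06), while in experiment 1 it did not (0.35, 0.27 to 0.43).

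The opposite strands of the hairpins, which are mostly degraded after the guide is loaded, were much rarer than the guides. Their list had 12 names, of which let-7a-1-3p and let-7c-2-3p have the same sequence, shown here because their reads cannot be told apart, with bases 2 to 8 in capitals.
let-7a-1-3p and let-7c-2-3p: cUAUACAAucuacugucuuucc

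Both names carried identical values in every library (17 and 6 reads in experiment 1, 605 and 681 RPM in experiment 2), and the row was used once. The 8 other-strand sequences listed in experiment 1 summed to 271 (pair-fed) and 236 (ethanol-fed) reads, or 0.0461 and 0.0423 reads per 100 reads of the 9 guides. In experiment 2 the 11 listed sequences summed to 861 and 1066 RPM, or 0.616 and 0.703 per 100 guide reads. The summed opposite strands were thus rarer relative to the guides in experiment 1, and let-7a-1-3p carried most of this gap. let-7g-3p went the other way, with 0.0666 and 0.0382 reads per 100 guide reads in experiment 1, resting on 6 and 4 reads, against 0 and 0.0033 in experiment 2. let-7d-3p was at a like share in both experiments, with 236 and 216 reads (56.6 and 50.1 RPM) in experiment 1 and 167 and 274 RPM in experiment 2. It stood at 9.86 and 7.68 reads per 100 reads of let-7d-5p in experiment 1, and at 9.58 and 13.8 in experiment 2. let-7d-3p had a log2 ratio of -0.18 in experiment 1, with a counting interval of -0.45 to 0.10 that includes 0, and of 0.71 (0.63 to 0.80) in experiment 2. No opposite strand other than let-7d-3p and the shared sequence of let-7a-1-3p and let-7c-2-3p had more than 6 reads in a library of experiment 1.

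In experiment 2 other opposite strands could be compared as well. let-7f-1-3p went from 17.8 to 28.9 RPM (log2 ratio 0.70, 0.44 to 0.97) and let-7e-3p from 5.83 to 10.8 RPM (0.88, 0.44 to 1.36). let-7f-2-3p stayed at 36.4 and 37.7 RPM and let-7b-3p at 20.5 and 23.9 RPM, both with intervals that include 0 (-0.15 to 0.26 and -0.04 to 0.49). let-7e was therefore higher on both strands in the ethanol-fed library of experiment 2, with let-7e-5p at 0.62. let-7c-1-3p (3.33 and 2.68 RPM), let-7i-3p (2.87 and 2.59 RPM) and miR-98-3p (2.31 and 3.33 RPM) were rare, and their intervals also included 0. let-7g-3p was listed at 0 with pair feeding and at 1.20 RPM with ethanol, and since values under 10 reads appear as 0 in this table no fold is given. let-7a-2-3p was listed at 0 in both.

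**Figure D4:**
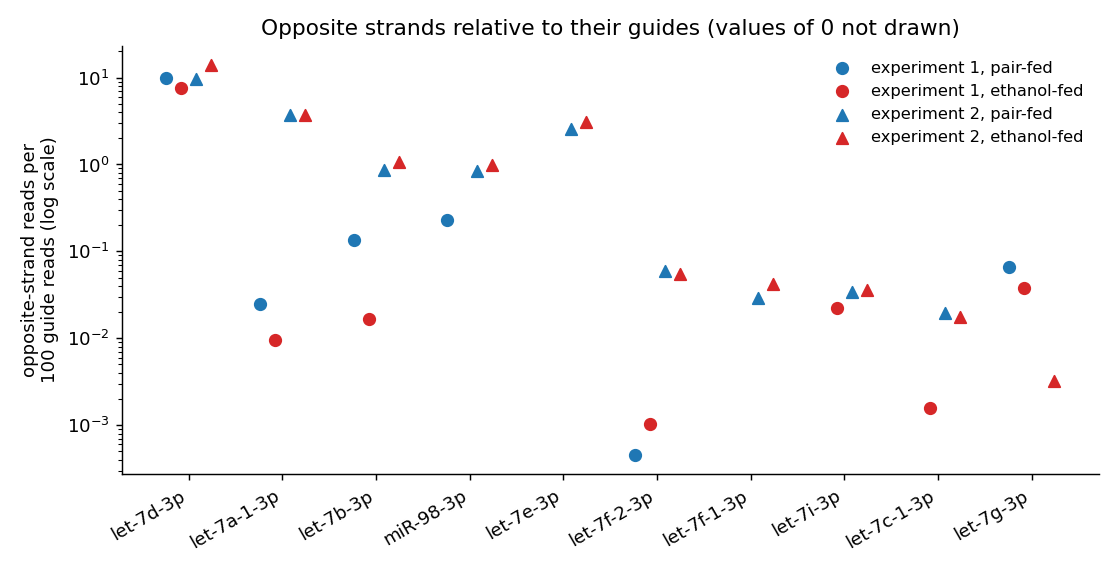
Reads of each opposite strand per 100 reads of its guide (log scale), in pair-fed (blue) and ethanol-fed (red) libraries of experiment 1 (circles) and experiment 2 (triangles). let-7d-3p lay between 7.68 and 13.8 in all 4 libraries, while let-7a-1-3p, drawn against let-7a-5p although let-7c-2-3p has the same sequence, was at 0.0248 and 0.0095 in experiment 1 and at 3.67 and 3.70 in experiment 2. In experiment 1 the points other than let-7d-3p and let-7a-1-3p rest on 1 to 6 reads, and values of 0 or names not listed are not drawn.

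Further names near the family were checked through the seed and the name. Of 1679 mature microRNA names in the RefSeq table, 11 (0.655%) held GAGGUAG at bases 2 to 8. These were the 9 members, let-7k and miR-1961. let-7j carries the family name but differs from let-7i-5p at a seed base, G8U, and ends in a further pair of bases.
let-7j: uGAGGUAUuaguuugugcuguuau
let-7k: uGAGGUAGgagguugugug
miR-1961: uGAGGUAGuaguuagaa

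let-7j had 0 and 2 reads in experiment 1 but 610 and 430 RPM in experiment 2, above the levels of let-7e-5p and miR-98-5p there. Its log2 ratio in experiment 2 was -0.51 (-0.56 to -0.45), and that of let-7i-5p, its closest member by sequence, was -0.21. Counts for let-7j can include reads of let-7i-5p if mismatches were allowed, and this was not tested. let-7k stood at 3.51 RPM in both libraries of experiment 2 and miR-1961 at 1.66 and 2.86 RPM, and neither was listed in experiment 1. The 2 further names with the seed thus stood at 3.51 RPM or less.

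Several members are transcribed with microRNAs of the miR-99, miR-100 and miR-125 families, which act through other seeds. Mirlet7c-1 lay 656 bp from Mir99a, Mirlet7e lay 367 bp from Mir125a, and Mirlet7a-2 lay 5211 bp from Mir100 on the same strand. miR-99b-5p is known from the same cluster as let-7e-5p, but its position was not looked up here. In experiment 2 let-7e-5p and these partners were all higher in the ethanol-fed library, miR-125a-5p from 269 to 478 RPM (log2 ratio 0.83, 0.76 to 0.89) and miR-99b-5p from 569 to 841 RPM (0.56, 0.52 to 0.61). In experiment 1 miR-125a-5p was at 2749 and 2812 RPM (0.03, -0.0046 to 0.07), while miR-99b-5p went from 8424 to 5889 RPM (-0.52, -0.54 to -0.49), opposite to let-7e-5p at 0.14. miR-99a-5p had a log2 ratio of -0.35 in experiment 1, where let-7c-5p had 0.55, and of 0.14 in experiment 2, where let-7c-5p had -0.14. miR-99a-5p and let-7c-5p thus had opposite signs in each table, and let-7c-5p also comes from the chromosome 15 gene. miR-100-5p had log2 ratios of -0.72 and 0.32, the signs of let-7a-5p, and miR-125b-5p had -0.39 and -0.13.

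Outside the family, the microRNAs whose log2 RPM over the 4 libraries, each centred on its own mean, lay nearest to the family sum were miR-27b-3p, miR-1839-5p and miR-16-5p, out of 48 with at least 1000 reads in every library. miR-27b-3p had 12456.5 and 11451 RPM in experiment 1 and 13122 and 16034 RPM in experiment 2, at a Euclidean distance of 0.21. miR-1839-5p lay at 0.34 and miR-16-5p at 0.50, and both were higher in the ethanol-fed library of experiment 1 and lower in that of experiment 2, opposite to the family sum. Among the members, let-7a-5p lay nearest to the sum (0.07) and let-7g-5p farthest (3.82), with 42 of the 48 non-members nearer than let-7g-5p. The likeness rests on 4 libraries and largely on a similar level in both experiments.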

How the data were processed

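Small RNA of liver was measured in 4 libraries, 1 pair-fed and 1 ethanol-fed in each of 2 deposited tables. Experiment 1 holds the raw count of reads on each mature microRNA as deposited. The values of experiment 2 were deposited as RPM with sums of 999899 (pair-fed) and 999896 (ethanol-fed), and the file also holds the authors' log2 fold change and the authors' p-value, which were not used. The genome build mm8 is listed in the submitters' processing notes, and the aligner, counter, mismatches allowed and filters are not given in the sources used here. Columns were assigned by their abbreviated names, with those for alcoholic liver disease and ethanol feeding read as ethanol-fed, and 0 columns of values were left without a condition.

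Low RPM values of experiment 2 rose in steps of 0.0925 and 0.0924 (96.0% of 176 and 94.7% of 171 values under 8 RPM lay within the rounding of a whole multiple). Reads were estimated as RPM over the step, and the lowest value above 0 was 0.92 RPM. A count of 0 in experiment 1 allows up to 0.719 (pair-fed) or 0.696 RPM (ethanol-fed). PCR copies were not told apart, so intervals cover counting error only. Shares have Wilson and ratios exact conditional binomial 95% intervals, while the change of a ratio of 2 members has a normal interval on the log scale. A ratio needed 10 reads or more over both libraries of its table and was taken with a pseudocount of 1 read. No p-value was computed, since each table holds 1 library per condition. The ratios and intervals were tried on simulated counts drawn at equal depth from the mean levels of experiment 1. These held counting error only, so the trial checks the calculation. It does not cover the spread between animals or the estimated reads of experiment 2.

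The members and lists were chosen with earlier results of these data known. All members, their opposite strands, guides with the same seed, neighbours in the same transcripts and the 3 microRNAs nearest in profile to the family sum were named by rule. let-7j was named for its name. The alternatives were median-of-ratios size factors, totals without the most abundant microRNA, without the red cell list with miR-486b-5p or without the members, unscaled reads (experiment 1), a pseudocount of 0.1 read, a 1.5-fold threshold, and either 100 reads or none as the minimum. The minimum of 1000 reads and the sum without let-7f-5p were chosen after seeing the data. Sequences and hairpins came from RefSeq (GRCm38.p6), host genes from GENCODE vM21 (GRCm38). Intervals were computed with scipy 1.17.1, tables with pandas 2.3.3 and numpy 2.4.6, and plots with matplotlib 3.10.9 (Python 3.11.15).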

Additional observations from a re-analysis of the deposited data

Results flagged for a closer look

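For 4 of the 9 members the ethanol-fed library differed from the pair-fed library in opposite directions in the 2 experiments, each time beyond counting error. The same held for 36.8% of the 57 microRNAs with at least 1000 reads in all 4 libraries, the members included, so the count does not set the family apart. The difference between the experiments was not tested over samples, since each experiment holds 1 library per condition.

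let-7b-5p had a log2 ratio of 0.68 in experiment 1 and -0.09 in experiment 2, a difference of 0.77. For let-7c-5p the values were 0.55 and -0.14, and the difference was 0.70. let-7f-5p had -0.22 and 0.19, a difference of -0.41. let-7a-5p had -0.17 and 0.16, a difference of -0.33. The signs of these 4 members stayed as they were in each experiment under every alternative scaling that was run. The other pseudocount and minimums could not have turned a sign at these read numbers. Within each experiment let-7b-5p and let-7c-5p had one sign and let-7a-5p and let-7f-5p had the other. Summed after the values had been seen, let-7b-5p and let-7c-5p had a log2 ratio of 0.56 (95% counting interval 0.55 to 0.58) in experiment 1 and -0.14 (-0.14 to -0.13) in experiment 2. The sum of let-7a-5p and let-7f-5p had -0.22 (-0.22 to -0.21) and 0.18 (0.18 to 0.19). The red cell list was 2.93-fold higher in the ethanol-fed library of experiment 1 and lower by a log2 ratio of -0.66 in experiment 2. Its part in these differences was not tested beyond the removal of the list together with miR-486b-5p from the total.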

How the results depend on the processing

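The summed level of the family in experiment 1 (log2 ratio -0.12) was -0.088 with median-of-ratios size factors, -0.16 without the most abundant microRNA in the total, -0.055 without the red cell list and miR-486b-5p, -0.14 without the members and -0.073 with unscaled reads, but 0.14 with let-7f-5p left out of the sum. In experiment 2 (0.12) the corresponding values were 0.11 with size factors, 0.12 without the most abundant microRNA, 0.14 without the members in the total and 0.061 without let-7f-5p. The median of the members in experiment 2 (0.16) was 0.15 with size factors and 0.18 without the members in the total. No member reached 2-fold under any scaling that was run. The same held for the other pseudocount and minimums, which could hardly alter members with at least 1000 reads in each library. With the threshold at 1.5-fold, 1 member in each experiment reached it, and so it was in experiment 2 under all 4 other scalings, but in experiment 1 it was 2 members (let-7b-5p and let-7c-5p) with size factors, without the red cell list and miR-486b-5p and with unscaled reads, and 1 without the most abundant microRNA or the members in the total. These combinations were chosen after seeing the data. The 2-fold counts over all microRNAs (77 in experiment 1, 121 in experiment 2) were 201 with no minimum in experiment 1, 19 and 36 with a minimum of 100 reads, 2 and 0 with at least 1000 reads in both libraries, and 134 and 182 at 1.5-fold, because other numbers of microRNAs entered or the threshold was lower. Of 135 values of single members under the alternatives, 104 stayed within the counting interval, 30 moved beyond it with the same sign and 1 changed sign, let-7i-5p in experiment 1 (0.0068 without the red cell list and miR-486b-5p in the total). The 104 include all values under the other minimums, which could not alter a member, and under the other pseudocount, which could hardly do so. Only the rescalings could have moved a value, so the count of 104 is no measure of stability. No paired analysis was run. The labels list 1 sample per condition, to which both tables belong, and the groups share 1 replicate number. The tables were normalised separately, and a fit over both with the experiment as a block, which would hold 1 pair of libraries per table, was not run. Leaving out a library would leave a table without one of its conditions. Unscaled reads were not run in experiment 2, which holds RPM. Depth was not the limit for the guides, whereas opposite strands in experiment 1 mostly had under 10 reads.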
